A study of Homo sapiens with 12 samples.

Results

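The genes of homologous recombination and of the Fanconi anaemia pathway were examined in CAMA-1, an established oestrogen receptor (ER)-positive human breast cancer cell line, under CDK4/6 inhibition, ER degradation and both. The list held 40 genes, found by symbol among the 60612 named rows of the count table, and 39 of them were among the 11803 genes with enough reads to test. RAD52 was the exception, with 2 to 14 reads per library. Wild-type cells received vehicle (DMSO), 100 nM of the CDK4/6 inhibitor abemaciclib, 5 nM of fulvestrant, which binds ER and drives its degradation, or the drugs together, in an arm whose doses the labels do not repeat. RNA was collected after 5 days, per the study's methods, and 3 biological replicates per group gave 12 libraries of 3′ RNA-seq, which counts reads near the polyadenylated end of each transcript. All groups share one parental line and one culture medium, so nothing here speaks to other lines.

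Homologous recombination mends a broken chromosome by copying the sister chromatid. The broken ends are first resected to single strands, BRCA1, BARD1, PALB2 and BRCA2 then prepare the strands to pair with the intact copy, and the joined molecules are later dissolved. The Fanconi pathway handles crosslinks between DNA strands: a core complex attaches ubiquitin to FANCD2 and FANCI, and the marked pair brings in nucleases and the recombination proteins. Both act mainly in S and G2 phases, and several of their genes are known targets of the E2F transcription factors that the CDK4/6 and Rb pathway controls.

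The promoters of these genes were searched for the E2F-type letters TTTCCCGC, TTTCGCGC, TTTGCCGC and TTTGGCGC on either strand. The window ran from 250 bases before to 50 after the start of each RefSeq transcript (GRCh38.p14), and 36 of the 40 genes were in that table. At least 1 of the letter strings was present in 7 of the 36 genes (19.4%), against 1090 of 27305 genes in the whole table (3.99%). The whole table includes genes with too few reads to test here, and a share among tested genes was not taken. All 7 were among the 29 matched genes that were lower in the combination than in DMSO (24.1%). Those 29 make up most of the 36, and a link between a match and the fall was not tested. The cell-cycle homology letters TTTGAA, on either strand, were in 6 of 36 genes (16.7%), against 18.2% of all genes. A match describes the sequence and does not show that a factor binds there. For each of the 7 genes 1 match is shown as the 60 bases that end with it, on the strand of the gene, with the match in capitals.
XRCC2 (chr7:152676113-152676172, minus strand): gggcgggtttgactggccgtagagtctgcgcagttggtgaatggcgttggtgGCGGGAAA
EXO1 (chr1:241848156-241848215, plus strand): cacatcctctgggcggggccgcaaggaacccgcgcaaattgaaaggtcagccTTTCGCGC
FANCA (chr16:89816812-89816871, minus strand): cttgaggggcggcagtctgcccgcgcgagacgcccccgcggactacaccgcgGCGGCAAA
FANCC (chr9:95317748-95317807, minus strand): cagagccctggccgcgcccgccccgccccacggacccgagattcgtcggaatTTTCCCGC
FANCD2 (chr3:10026383-10026442, plus strand): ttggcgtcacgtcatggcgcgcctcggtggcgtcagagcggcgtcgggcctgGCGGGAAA
RMI1 (chr9:83980721-83980780, plus strand): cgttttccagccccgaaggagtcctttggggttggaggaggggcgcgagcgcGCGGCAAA
TOPBP1 (chr3:133661941-133662000, minus strand): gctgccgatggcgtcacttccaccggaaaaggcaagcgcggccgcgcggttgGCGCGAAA
EXO1, FANCD2 and TOPBP1 carried the match within 10 bases of the start site. In FANCA the match lay 168 bases before the start. FANCC held a second match, which is not shown.

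Library totals ran from 3299119 to 5164667 reads. All 8 luminal and ER-positive markers, ESR1 and GATA3 among them, passed the filter. Of 8 markers of basal, mesenchymal, blood, fibroblast and endothelial cells, COL1A1 alone passed, COL1A2 and PECAM1 had 0 reads in all libraries, and the 8 together summed to 14.8 to 19.2 CPM (reads of a gene per 1000000 reads of the scaled library total) with DMSO, 22.2 to 27.5 with abemaciclib, 22.3 to 28.5 with fulvestrant and 18.1 to 23.3 with the combination. The 6 proliferation markers, MKI67 and TOP2A among them, summed to 2755 to 2993, 523 to 582, 283 to 322 and 62.3 to 78.2 CPM in the same order of groups. Their part in the results that follow was not tested. Fulvestrant replicate 3 stood furthest from its own group (correlation across genes of 0.970 and 0.978 with the other fulvestrant libraries), and counts without it are given. In bulk RNA, fewer cells expressing a gene and less of its RNA per cell cannot be told apart.

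The first comparisons asked what each treatment did to the repair genes relative to DMSO. The RNA of these genes fell broadly under every treatment. Their summed level was 1268 ± 31.5 CPM with DMSO (SD, n = 3), 697 ± 11.6 with abemaciclib, 513 ± 7.94 with fulvestrant and 471 ± 15.3 with the combination, and the ranges of the groups did not overlap. Abemaciclib lowered 29 of 39 genes and raised 0, where 20.7% of all genes tested were lower and 20.5% higher (quasi-likelihood test of edgeR, threshold 0.05 on p adjusted by Benjamini-Hochberg). At an unadjusted p under 0.05 the number raised was also 0. With DESeq2, 24 genes were lower and 0 higher. Fulvestrant lowered 32 and raised 2, against 25.7% lower and 25.3% higher of all genes. The combination lowered 33 and raised 2, against 27.5% and 27.7%. The median log2 fold change of the 39 genes was -0.87 with abemaciclib, -1.36 with fulvestrant and -1.36 with the combination, and the median of all genes was 0.00, 0.01 and 0.01. All 3 comparisons share the DMSO libraries. Without fulvestrant replicate 3, fulvestrant still lowered 32 genes and the median was -1.27.

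Each of the 29 genes lowered by abemaciclib was also lowered by fulvestrant and by the combination. The same overlap was not counted over all genes, and the shared DMSO libraries raise it for any gene. Fulvestrant lowered 3 more, ATRIP, CHEK2 and MRE11, and PALB2 was lower in the combination only. FANCF and RAD50 were higher with fulvestrant and with the combination. ATM, ATR, FAAP100 and FANCL passed in none of the 3 comparisons. The libraries of the 2 groups did not overlap for 29 of the 39 genes with abemaciclib, 35 with fulvestrant and 36 with the combination, where the same held for 54.2%, 54.7% and 62.1% of all genes tested.

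**Figure D1:**
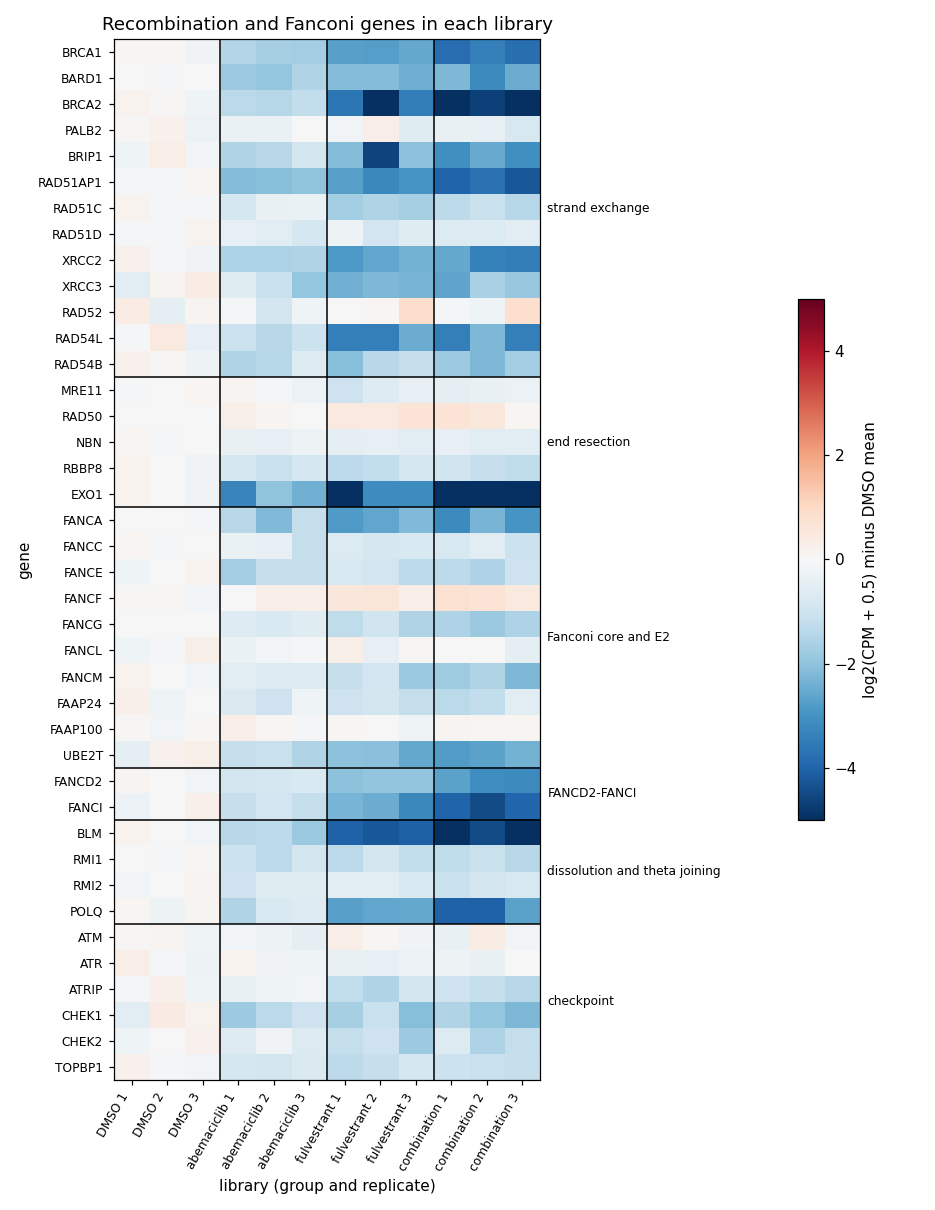
Level of each of the 40 genes (rows, grouped by role) in each of the 12 libraries (columns), as log2(CPM + 0.5) minus the mean of the 3 DMSO libraries; blue is lower, red is higher and the colour scale ends at 5 in either direction. The blue deepens from abemaciclib to fulvestrant to the combination for BRCA1, BRCA2, FANCD2 and FANCI, while RMI1, RBBP8 and TOPBP1 are about as blue in all 3 treated groups.

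The genes of strand exchange, the pairing of a resected end with its intact copy, had the lowest median of any role with either single drug. Of the 12 tested, abemaciclib lowered 11 with a median log2 fold change of -1.40, fulvestrant lowered 11 with a median of -2.71 and the combination lowered all 12 with a median of -2.98. Among all genes tested, 20.7%, 25.7% and 27.5% were lower. BRCA1 (chr17:43044295-43170245, GRCh38, GENCODE 44), a ubiquitin ligase that steers breaks towards recombination, was at 95.6, 96.5 and 79 CPM with DMSO, 32.4, 28 and 26.3 with abemaciclib, 13.3, 13 and 15 with fulvestrant and 6.01, 7.86 and 6.21 with the combination. The 4 groups did not overlap and stood in that order. Its log2 fold change against DMSO was -1.64 ± 0.12 (SE) with abemaciclib, -2.70 ± 0.14 with fulvestrant and -3.74 ± 0.15 with the combination, with adjusted p of 2.16e-11, 2.97e-15 and 9.12e-18. BARD1, its obligate partner, was at 62.9, 60.2 and 63.3 CPM with DMSO, 17.2, 16.1 and 21.5 with abemaciclib, 13.6, 13.5 and 10.9 with fulvestrant and 12.8, 6.41 and 10.7 with the combination. Every treated library lay below every DMSO library, and the fulvestrant and combination libraries overlapped. Its log2 fold changes were -1.77 ± 0.15, -2.29 ± 0.17 and -2.65 ± 0.17.

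BRCA2 (chr13:32315086-32400268), which binds single-stranded DNA at resected ends, was at 66.8, 62.1 and 50.8 CPM with DMSO, 23, 21.6 and 25.3 with abemaciclib, 4.45, 1.41 and 5.01 with fulvestrant and 0.481, 1.86 and 0.971 with the combination. A fall of this size left 16 reads over the 3 combination libraries, against 798 over the DMSO libraries. The log2 fold change against DMSO was -1.36 ± 0.17 with abemaciclib, -3.99 ± 0.23 with fulvestrant and -5.69 ± 0.27 with the combination (adjusted p 3.55e-07, 1.40e-13 and 2.49e-15). RAD51AP1, which stimulates strand invasion, was at 29.7, 29.8 and 32.7 CPM with DMSO, 6.4, 6.62 and 7.33 with abemaciclib, 4.2, 2.82 and 3.42 with fulvestrant and 1.44, 1.86 and 1.17 with the combination. Here too the 4 groups were separate, and the changes were -2.18 ± 0.18, -3.12 ± 0.21 and -4.35 ± 0.24. PALB2, the bridge between BRCA1 and BRCA2, did not follow its partners. Its level was 17 ± 3.1 CPM with DMSO (SD, n = 3), 14.4 ± 1.94 with abemaciclib, 15.7 ± 5.14 with fulvestrant and 11.6 ± 1.94 with the combination, and only the combination passed, at -0.56 ± 0.21 (adjusted p 0.0265). That call was lost with DESeq2 (adjusted p 0.0654) and without DMSO replicate 1 (-0.54, 0.055), DMSO replicate 2 (-0.42, 0.16) or combination replicate 3 (-0.42, 0.141).

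XRCC2, XRCC3, RAD51C and RAD51D, related proteins that act together in strand exchange, were unequal. XRCC2 was at 23.2, 18.6 and 17.6 CPM with DMSO, 6.2, 6.18 and 6.57 with abemaciclib, 2.22, 2.82 and 3.42 with fulvestrant and 2.89, 1.45 and 1.36 with the combination. Each treatment separated it from DMSO, with log2 fold changes of -1.63 ± 0.22, -2.78 ± 0.26 and -3.39 ± 0.27. RAD51C was at 35, 28.7 and 28.5 CPM with DMSO, 16.6, 23.6 and 24.3 with abemaciclib, 9.14, 10.4 and 9.34 with fulvestrant and 12, 13.9 and 11.1 with the combination, and its fulvestrant libraries were the lowest of the 4 groups, under those of the combination. Its changes against DMSO were -0.51 ± 0.16, -1.66 ± 0.18 and -1.31 ± 0.17, and the first was lost without DMSO replicate 1 (-0.42, adjusted p 0.054) or abemaciclib replicate 1 (-0.35, 0.0977). XRCC3 was at 6.83, 11 and 13.2 CPM with DMSO, 6.4, 4.41 and 2.27 with abemaciclib, 1.48, 1.69 and 1.6 with fulvestrant and 1.2, 2.89 and 2.33 with the combination. The abemaciclib libraries were widely spread, and the highest of them lay just under the lowest DMSO library. The changes were -1.24 ± 0.31, -2.71 ± 0.38 and -2.26 ± 0.35. RAD51D moved less, by -0.60 ± 0.17, -0.60 ± 0.17 and -0.66 ± 0.17.

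RAD54L, a motor protein that helps DNA strands to pair, was at 4.45, 7.03 and 3.51 CPM with DMSO, 2, 1.55 and 2.02 with abemaciclib, 0, 0 and 0.456 with fulvestrant and 0, 0.62 and 0 with the combination. It was near 0 in fulvestrant (2 reads) and in the combination (3 reads), where DMSO had 69. The ratio of DMSO to fulvestrant was 30.7 (95% counting interval 8.18 to 258) and that of DMSO to the combination was 24.2 (7.93 to 120), which covers counting error only. The change with abemaciclib was -1.44 ± 0.44 (adjusted p 0.0101), and it was lost without DMSO replicate 2 (-1.07, 0.119) and with DESeq2 (0.0545). Its paralogue RAD54B was lower by -1.41 ± 0.42, -1.90 ± 0.46 and -2.53 ± 0.49 in the 3 comparisons, the first of which was lost with DESeq2 (adjusted p 0.0548) and without abemaciclib replicate 1 (-1.18, 0.0581). BRIP1, a helicase bound to BRCA1, fell from 12 ± 2.78 CPM with DMSO to 4.69 ± 1.21, 1.58 ± 1.37 and 1.2 ± 0.397.

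In end resection the exonuclease gene EXO1 stood alone. EXO1 (chr1:241847967-241895148), which lengthens the single-stranded tail, was at 29.7, 26.4 and 23.2 CPM with DMSO, 2.2, 6.18 and 4.55 with abemaciclib, 0.247, 2.54 and 2.51 with fulvestrant and 0, 0 and 0 with the combination. No combination library held a read, and abemaciclib and fulvestrant libraries overlapped. The combination was 123-fold lower than DMSO, taking 3 reads over the group as the limit that a count of 0 allows. The counting error of the 351 DMSO reads is not included. With the single drugs the log2 fold change was -2.62 ± 0.32 and -3.88 ± 0.38 (adjusted p 3.62e-06 and 1.51e-07).

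RBBP8, which encodes the resection factor CtIP, was at 129, 111 and 100 CPM with DMSO, 60.4, 51.4 and 61.4 with abemaciclib, 45.7, 48 and 61.1 with fulvestrant and 55.8, 50.0 and 46.6 with the combination. All treated libraries lay in one range, below DMSO, with changes of -0.97 ± 0.12, -1.12 ± 0.12 and -1.15 ± 0.12. The MRE11, RAD50 and NBN genes encode one complex that binds broken ends, yet they did not move together. NBN was at 104, 90.5 and 95.7 CPM with DMSO, 74, 73.1 and 79.8 with abemaciclib, 68.9, 73.3 and 66.1 with fulvestrant and 71.9, 66.8 and 65.6 with the combination and was modestly lower under each treatment (-0.35 ± 0.09, -0.47 ± 0.09 and -0.50 ± 0.09). MRE11 was at 36.5, 38 and 41.8 CPM with DMSO, 42.6, 37.5 and 31.3 with abemaciclib, 18.8, 24.8 and 28.7 with fulvestrant and 28.4, 30.0 and 31.5 with the combination. It overlapped DMSO with abemaciclib (-0.06 ± 0.14, adjusted p 0.767) and lay below it with fulvestrant (-0.69 ± 0.15) and with the combination (-0.37 ± 0.14). The last call was lost with DESeq2 (adjusted p 0.0548) and without DMSO replicate 2, DMSO replicate 3, combination replicate 1 or combination replicate 2, with changes of -0.31 to -0.39 and adjusted p of 0.0504 to 0.11.

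RAD50 was at 13.4, 13.3 and 13.2 CPM with DMSO, 16.2, 14.8 and 13.6 with abemaciclib, 19, 18.9 and 21.7 with fulvestrant and 21.9, 19.2 and 14.4 with the combination. Every treated library was above every DMSO library, and the rise passed with fulvestrant (0.58 ± 0.17, adjusted p 0.0061) and with the combination (0.47 ± 0.17, 0.0224) but not with abemaciclib (0.17 ± 0.18, 0.472). The combination call was lost with DESeq2 (0.0801) and without DMSO replicate 2, DMSO replicate 3, combination replicate 1 or combination replicate 2, with changes of 0.34 to 0.47 and adjusted p of 0.0511 to 0.125. The fulvestrant call missed a 2-fold requirement and held under the other alternatives tried.

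Of the 10 genes for the Fanconi core and its ubiquitin-conjugating enzyme, 7 were lower under each treatment, with medians of -0.65, -1.11 and -1.19, and 1 was higher with fulvestrant and with the combination. All genes tested were lower in 20.7%, 25.7% and 27.5% of cases, and higher in 25.3% and 27.7% with fulvestrant and the combination. UBE2T, the conjugating enzyme through which the core complex acts on FANCD2, was at 33.8, 56.3 and 58.9 CPM with DMSO, 21, 22.3 and 16.7 with abemaciclib, 11.1, 11 and 7.75 with fulvestrant and 6.5, 7.03 and 8.93 with the combination. DMSO replicate 1 was the lowest of its group and still above every treated library, and the changes were -1.32 ± 0.18, -2.35 ± 0.20 and -2.73 ± 0.21. FANCA, a large scaffold subunit of the core, was at 26.4, 26.6 and 25.4 CPM with DMSO, 9.8, 5.3 and 11.1 with abemaciclib, 3.21, 3.95 and 5.24 with fulvestrant and 2.41, 4.76 and 2.91 with the combination. Its changes of -1.58 ± 0.22, -2.64 ± 0.25 and -2.94 ± 0.25 were the largest among the core subunits. FANCG, which binds FANCA, was at 42.7, 43.7 and 43.2 CPM with DMSO, 27.8, 25.6 and 28.6 with abemaciclib, 17.8, 21.4 and 15 with fulvestrant and 14.7, 11.6 and 14.6 with the combination, with the 4 groups apart from each other and changes of -0.66 ± 0.13, -1.27 ± 0.14 and -1.67 ± 0.14.

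FANCE, the subunit that contacts FANCD2, was at 14.2, 16.7 and 18.6 CPM with DMSO, 4.6, 7.06 and 7.07 with abemaciclib, 9.14, 8.18 and 6.15 with fulvestrant and 6.26, 5.38 and 7.77 with the combination. The treated groups overlapped each other and not DMSO, with changes of -1.43 ± 0.22, -1.09 ± 0.22 and -1.36 ± 0.22. FANCC, FANCM and FAAP24 were lower under each treatment, by -0.65 to -0.59 with abemaciclib and -1.93 to -0.81 with the combination. Their abemaciclib calls were the least secure. FAAP24 (adjusted p 0.0366) and FANCM (0.022) lost theirs with DESeq2 and without single DMSO or abemaciclib libraries: DMSO replicates 1 and 3 and abemaciclib replicates 1 and 2 for FAAP24 (-0.67 to -0.48), and DMSO replicates 1 and 2 and abemaciclib replicates 2 and 3 for FANCM (-0.67 to -0.57). FANCC lost its call without abemaciclib replicate 3 (-0.38, 0.0915).

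FANCF, an adaptor within the core, went the other way from its partners. It was at 14.2, 14.3 and 12.2 CPM with DMSO, 13.6, 17 and 17.2 with abemaciclib, 20.5, 20.6 and 17.1 with fulvestrant and 23.6, 22.1 and 19.2 with the combination. Abemaciclib libraries overlapped DMSO, while all fulvestrant and combination libraries lay above it, with changes of 0.23 ± 0.17 (adjusted p 0.293), 0.51 ± 0.17 (0.0117) and 0.67 ± 0.16 (0.000897). Without DMSO replicate 3 the fulvestrant change was 0.45 and missed the threshold (0.0525), while the combination call held under all alternatives tried for it but a 2-fold requirement. FAAP100 was at 30.6, 26.8 and 30.8 CPM with DMSO, 36.8, 31.6 and 27.8 with abemaciclib, 30.4, 29.9 and 25.1 with fulvestrant and 32.2, 31.8 and 31.8 with the combination, with changes of 0.14 ± 0.13, -0.05 ± 0.14 and 0.13 ± 0.13, none of which passed. FANCL, the ligase subunit that attaches the ubiquitin, was at 9.37 ± 1.76 CPM with DMSO (SD, n = 3), 8.14 ± 0.847 with abemaciclib, 9.24 ± 2.32 with fulvestrant and 8.5 ± 1.64 with the combination, and its changes lay between -0.22 and -0.02 with adjusted p of 0.475 to 0.942.

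The substrates of that ligase fell together. FANCD2 (chr3:10026370-10101932), the subunit whose ubiquitination marks an active pathway, was at 69.7, 61.8 and 57.5 CPM with DMSO, 32.8, 34.2 and 36.4 with abemaciclib, 14.6, 15.5 and 15.7 with fulvestrant and 9.38, 6.82 and 6.41 with the combination. FANCI (chr15:89243945-89317261), its partner in the clamp on DNA, was at 53.7, 66.7 and 77.1 CPM with DMSO, 29.4, 33.6 and 28.6 with abemaciclib, 12.6, 11.3 and 6.61 with fulvestrant and 3.61, 2.48 and 3.69 with the combination. For both genes the 4 groups were separate in the order DMSO, abemaciclib, fulvestrant, combination. FANCD2 changed by -0.87 ± 0.12, -2.04 ± 0.14 and -3.07 ± 0.15 against DMSO, with adjusted p of 1.93e-06, 1.14e-12 and 7.35e-16. FANCI changed by -1.12 ± 0.15, -2.72 ± 0.18 and -4.34 ± 0.21, with adjusted p of 1.14e-06, 1.09e-12 and 1.18e-15.

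All 4 genes of dissolution and theta-mediated joining were lower under each treatment, by unequal amounts, where 20.7%, 25.7% and 27.5% of all genes tested were lower. BLM (chr15:90717346-90816166), the helicase of the complex that dissolves joined molecules, was at 22.3, 19.4 and 17.8 CPM with DMSO, 7.2, 7.73 and 5.05 with abemaciclib, 0.741, 0.564 and 0.684 with fulvestrant and 0, 0.414 and 0 with the combination. The groups did not overlap, and the combination held 2 reads where DMSO held 263, a ratio of 138 (95% counting interval 37.8 to 1146). Its log2 fold change was -1.55 ± 0.23 with abemaciclib and -4.82 ± 0.36 with fulvestrant, where 8 reads remained. The scaffold subunits of the same complex fell far less. RMI1 was at 34.7, 34 and 36.8 CPM with DMSO, 16.6, 13.5 and 18.4 with abemaciclib, 13.6, 18.6 and 14.8 with fulvestrant and 14.4, 16.1 and 13.2 with the combination, and its 3 treated groups overlapped at changes of -1.12 ± 0.15, -1.17 ± 0.15 and -1.27 ± 0.15. RMI2 was at 21.1, 23.2 and 25.6 CPM with DMSO, 11.2, 15 and 15.2 with abemaciclib, 15.8, 15.8 and 13.4 with fulvestrant and 10.3, 12 and 13 with the combination, with changes of -0.77 ± 0.16, -0.64 ± 0.17 and -0.98 ± 0.17. POLQ, the polymerase of theta-mediated end joining, was at 8.31, 6.46 and 8.68 CPM with DMSO, 2.4, 4.41 and 4.8 with abemaciclib, 0.741, 0.846 and 0.912 with fulvestrant and 0, 0 and 0.777 with the combination. Its changes were -1.02 ± 0.34, -3.18 ± 0.46 and -4.65 ± 0.54, and the combination value rests on 4 reads. The abemaciclib call of POLQ (adjusted p 0.017) was lost with DESeq2 (0.0641) and without DMSO replicate 3 (-0.92, 0.072) or abemaciclib replicate 1 (-0.75, 0.12).

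**Figure D2:**
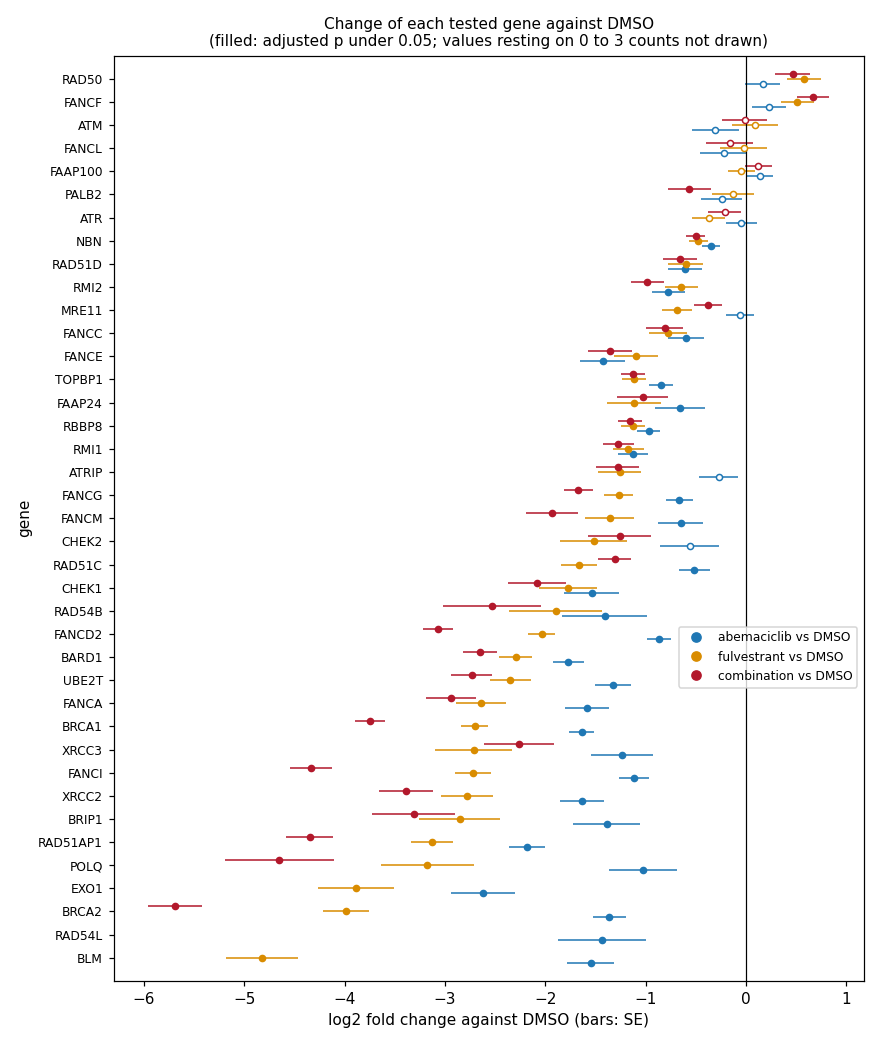
Log2 fold change against DMSO (x axis, bars are SE) of each tested gene (y axis) with abemaciclib, fulvestrant and the combination; filled points passed an adjusted p of 0.05. Values resting on 0 to 3 reads are not drawn. Of the fulvestrant points drawn, BLM, BRCA2 and EXO1 lie furthest to the left, while RAD50 and FANCF lie to the right of 0.

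The checkpoint genes divided between those that fell and those that did not pass. Of 6, abemaciclib lowered 2, CHEK1 and TOPBP1, and fulvestrant and the combination each lowered 4. The shares of all genes tested that were lower were 20.7%, 25.7% and 27.5%, and 6 genes are few to set against them. TOPBP1, the activator of the ATR kinase, was at 95.6, 77.5 and 75 CPM with DMSO, 45, 42.8 and 49.8 with abemaciclib, 32.9, 36.7 and 44 with fulvestrant and 39, 37.8 and 36.5 with the combination, with changes of -0.84 ± 0.12, -1.12 ± 0.12 and -1.12 ± 0.12. CHEK1, the kinase that ATR switches on, fell from 17.2 ± 5.66 CPM to 6.14 ± 1.72, 5.23 ± 1.97 and 4.19 ± 1.23, by -1.54 ± 0.27, -1.77 ± 0.29 and -2.09 ± 0.29. ATR itself was at 31.2, 23.2 and 20.9 CPM with DMSO, 28.2, 22.1 and 21.2 with abemaciclib, 18.8, 18.6 and 19.8 with fulvestrant and 20.9, 18.8 and 24.1 with the combination. Its libraries overlapped those of DMSO with abemaciclib and the combination and lay below them with fulvestrant, without passing (-0.37 ± 0.17, adjusted p 0.0648).

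ATRIP, the partner through which ATR finds single-stranded DNA, was at 14.5, 18.2 and 13 CPM with DMSO, 11.6, 12.8 and 13.9 with abemaciclib, 6.18, 5.08 and 7.75 with fulvestrant and 7.22, 6.41 and 5.44 with the combination. It overlapped DMSO with abemaciclib (-0.27 ± 0.19, adjusted p 0.273) and was well below it with fulvestrant (-1.26 ± 0.22, 2.30e-05) and the combination (-1.28 ± 0.21, 1.09e-05). CHEK2 also passed with fulvestrant and the combination and not with abemaciclib, at -0.56 ± 0.29 (adjusted p 0.126), -1.52 ± 0.34 and -1.26 ± 0.31. ATM, the kinase that answers double-strand breaks, was at 9.96 ± 1.33 CPM with DMSO (SD, n = 3), 8 ± 1.1 with abemaciclib, 10.7 ± 1.97 with fulvestrant and 9.81 ± 2.88 with the combination, with changes of -0.30 ± 0.23, 0.09 ± 0.23 and -0.01 ± 0.23 and adjusted p of 0.315 to 0.967. The DMSO and treated libraries of ATM overlapped in all 3 comparisons.

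**Figure D3:**
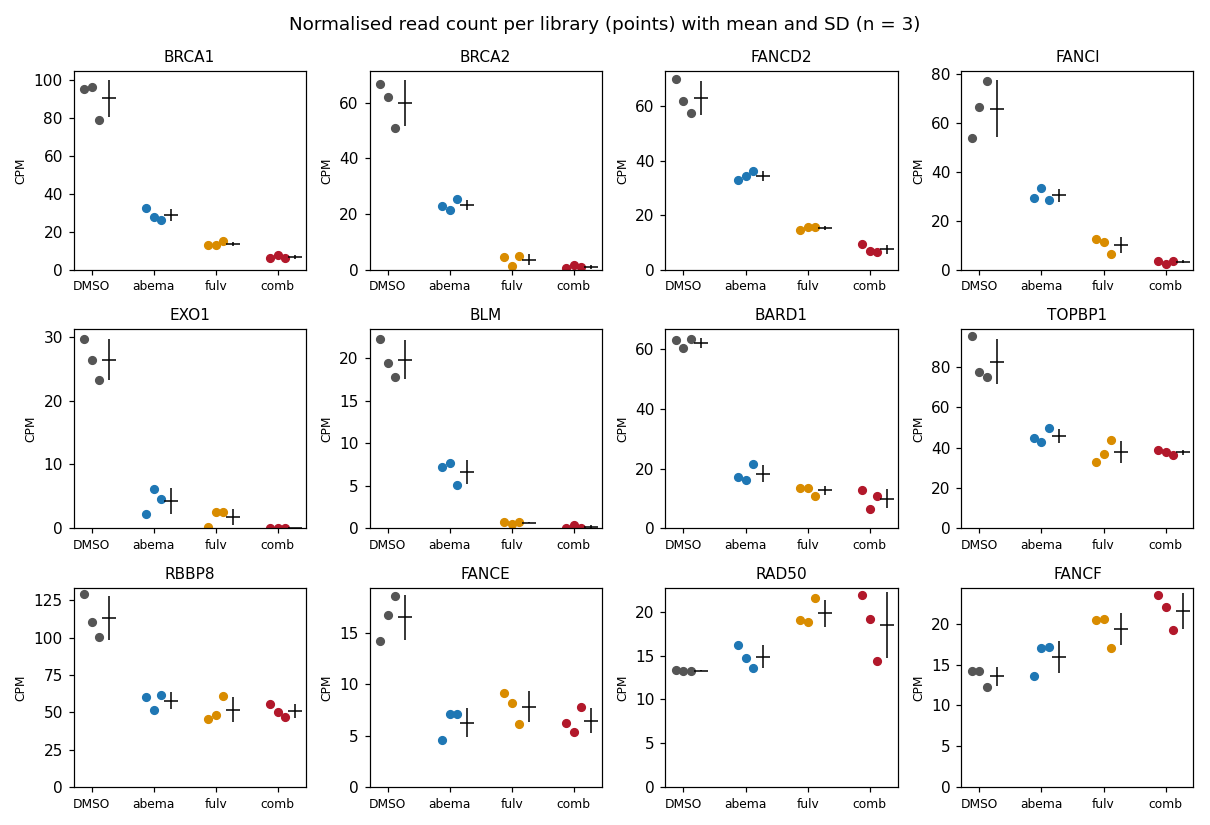
Normalised read count in CPM (y axis, from 0) of 12 genes in each library (points), with the mean and SD of the 3 libraries of each group at the right; abema, fulv and comb stand for abemaciclib, fulvestrant and the combination. BRCA1, FANCD2 and FANCI step down from group to group, TOPBP1, RBBP8 and FANCE drop once, and RAD50 and FANCF rise.

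The single drugs were then set against each other. Fulvestrant gave lower levels than abemaciclib for 20 of 39 genes and higher levels for 0, where 15.5% of all genes tested were lower and 13.4% higher. At an unadjusted p under 0.05 RAD50 was the 1 gene higher, and DESeq2 called 18 lower and 0 higher. The median difference was -0.60 (0.01 over all genes), and without fulvestrant replicate 3 it was -0.48 with 19 genes lower. The libraries of the 2 groups did not overlap for 22 of the 39 genes, against 40.2% of all genes tested. The largest differences among the genes with more than 3 reads in each group were BLM at -3.28 ± 0.42, BRCA2 at -2.63 ± 0.25 and POLQ at -2.15 ± 0.52, followed by FANCI at -1.60 ± 0.19. For RAD54L the ratio of abemaciclib to fulvestrant was 11.1 (95% counting interval 2.77 to 96.7). RBBP8, RMI1, TOPBP1 and FANCE differed by -0.16 ± 0.12, -0.05 ± 0.17, -0.27 ± 0.13 and 0.33 ± 0.25, with adjusted p of 0.371, 0.861, 0.109 and 0.361. The calls of BARD1, CHEK2 and FANCM were lost with DESeq2 (adjusted p 0.066, 0.111 and 0.108). Those of BRIP1, CHEK2 and FANCM were lost when only the groups compared were fitted (0.0562, 0.0633 and 0.0706), a fit in which 14 genes were called. With no filter on low counts CHEK2 (0.0692) and FANCM (0.0563) missed the threshold. The calls of BARD1, BRIP1, CHEK2, FANCM and XRCC3 also depended on single libraries, and were lost on leaving out abemaciclib replicates 1 or 3 or fulvestrant replicates 1 or 3 for BARD1 (-0.57 to -0.40), abemaciclib replicate 3 or fulvestrant replicate 2 for BRIP1 (-1.26 and -0.96), abemaciclib replicate 1 for XRCC3 (-1.09), and, for CHEK2 (-1.05 to -0.71) and FANCM (-0.80 to -0.45) alike, DMSO replicates 2 or 3, any 1 of the abemaciclib libraries or fulvestrant replicates 1 or 3.

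The next question was whether the combination went beyond either drug alone. Against abemaciclib it lowered 19 of 39 genes and raised 1, where 17.7% of all genes tested were lower and 15.9% higher, with a median of -0.79 (0.01 over all genes). Against fulvestrant it lowered 5 and raised 0, where 1.63% of all genes were lower and 0.297% higher, with a median of -0.26 (0.00 over all genes). MRE11 was the 1 gene higher at an unadjusted p under 0.05, and DESeq2 called 0 higher. Libraries did not overlap for 23 of 39 genes against abemaciclib and 10 against fulvestrant, where 48.5% and 14.6% of all genes did not.

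The 5 genes lower than with either drug were BRCA1, BRCA2, EXO1, FANCD2 and FANCI. BRCA1 was lower by -2.11 ± 0.17 than with abemaciclib and -1.04 ± 0.19 than with fulvestrant (adjusted p 7.20e-11 and 0.000954). FANCD2 was lower by -2.20 ± 0.16 and -1.03 ± 0.18 (1.24e-11 and 0.00059), and FANCI by -3.22 ± 0.23 and -1.62 ± 0.28 (1.40e-11 and 0.000515). These 3 calls against fulvestrant held under all alternatives tried. EXO1 had no reads in the combination. Set at the limit of 3 reads, it was 19.9-fold below its abemaciclib level and 8.26-fold below its fulvestrant level. Those levels rest on 57 and 21 reads, whose own counting error is not included. BRCA2 differed by -4.33 ± 0.31 and -1.70 ± 0.45 (2.88e-11 and 0.0437), and its second fulvestrant library, at 1.41 CPM, lay below the second combination library, at 1.86 CPM.

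Against fulvestrant the calls of BRCA2 and EXO1 were not secure. BRCA2 was lost with library totals in place of scaling factors (-1.66, adjusted p 0.0642) and without DMSO replicate 2, any 1 of the abemaciclib libraries, fulvestrant replicates 1 or 3, or combination replicates 1 or 3 (-1.71 to -1.40, adjusted p 0.0635 to 0.208), and EXO1 without DMSO replicate 2, abemaciclib replicate 3, fulvestrant replicate 2 or any 1 of the combination libraries (0.0579 to 0.127). Without fulvestrant replicate 3, BRCA2 was at -1.40 (0.101) and 4 of the 39 genes were lower.

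A further 14 genes were lower than with abemaciclib without passing against fulvestrant. BLM was among them, with a ratio of abemaciclib to combination of 47.7 (95% counting interval 12.8 to 400), as was POLQ at -3.63 ± 0.62. RAD51AP1, separate from fulvestrant in every library, missed the threshold against it (-1.22 ± 0.34, adjusted p 0.0643), as did FANCG (-0.40 ± 0.16, 0.298) and BLM (0.37). XRCC3 (-1.03 ± 0.39 against abemaciclib, 0.0454) lost its call with DESeq2 (0.103), with library totals (0.0574) and when DMSO replicate 2, abemaciclib replicates 1 or 2, fulvestrant replicate 1 or combination replicates 1 or 3 were left out (-1.08 to -0.63). Another 11 genes, RBBP8, RMI1, TOPBP1 and FANCE among them, were lower with abemaciclib and passed in neither comparison of the combination with a single drug. FANCF was the 1 gene higher than with abemaciclib (0.44 ± 0.16, 0.0303), and that call was lost with DESeq2 (0.1), with no filter on low counts (0.0693) and without abemaciclib replicate 1, combination replicate 1 or combination replicate 2 (0.33 to 0.42).

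Whether abemaciclib acted differently in the presence of fulvestrant was tested as an interaction, the log2 change from fulvestrant to the combination minus that from DMSO to abemaciclib. A positive value means that the change with abemaciclib was less negative, or positive, when fulvestrant was present. This reading takes the doses in the combination to be those of the single drugs, which the labels do not state. The interaction was positive for 9 of 39 genes and negative for 0, where 9.49% of all genes tested were positive and 11.6% negative, with a median of 0.54 (-0.01 over all genes). At an unadjusted p under 0.05, 16 genes were positive and 0 negative; DESeq2 called 7 positive and 0 negative.

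The 9 were BARD1, RAD51C and XRCC3 in strand exchange, RBBP8 in resection, FANCA, FANCE and UBE2T in the Fanconi core, RMI1 in dissolution and TOPBP1 in the checkpoint. BARD1 changed by -1.77 ± 0.15 with abemaciclib alone and by -0.36 ± 0.21 on top of fulvestrant, an interaction of 1.42 ± 0.26 (adjusted p 0.000228). RBBP8 changed by -0.97 ± 0.12 and -0.03 ± 0.12 (0.94 ± 0.17, 0.000201), TOPBP1 by -0.84 ± 0.12 and -0.01 ± 0.13 (0.84 ± 0.17, 0.000822), and RMI1 by -1.12 ± 0.15 and -0.10 ± 0.17 (1.03 ± 0.23, 0.00168). For RBBP8, TOPBP1 and RMI1 the libraries of fulvestrant and the combination overlapped at the level that abemaciclib alone reached or below it. The 4 interactions of BARD1, RBBP8, TOPBP1 and RMI1 held under the alternatives tried for them, except that RBBP8 and TOPBP1 missed a 2-fold requirement.

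FANCE (1.16 ± 0.34, 0.0139), FANCA (1.29 ± 0.41, 0.024) and RAD51C (0.87 ± 0.25, 0.0139) each lost the call without certain libraries. For FANCE these were abemaciclib replicate 1 (0.97, adjusted p 0.0516) and combination replicate 3 (0.99, 0.0601). For FANCA they were abemaciclib replicate 2, fulvestrant replicate 1 and combination replicate 2 (0.95 to 1.12, 0.0639 to 0.159), and for RAD51C combination replicate 2 (0.76, 0.0524). The interactions of UBE2T (0.94 ± 0.32, 0.0369) and XRCC3 (1.69 ± 0.58, 0.0389) were the least secure and were lost with DESeq2 (adjusted p 0.0585 and 0.0747). The UBE2T call was also lost without DMSO replicates 2 or 3, abemaciclib replicates 1 or 3, fulvestrant replicates 1 or 3, or combination replicates 2 or 3 (0.77 to 1.02). The XRCC3 call was lost without DMSO replicates 2 or 3, abemaciclib replicates 2 or 3, fulvestrant replicates 1 or 2, or combination replicates 2 or 3 (1.41 to 1.73). None of the 9 passed in the combination against fulvestrant, and 5 of them, BARD1, FANCA, RAD51C, UBE2T and XRCC3, fell from abemaciclib to the combination. For BRCA1, BRCA2, FANCD2 and FANCI the interaction was 0.60 ± 0.23, -0.34 ± 0.47, -0.17 ± 0.22 and -0.50 ± 0.32, with adjusted p of 0.0637, 0.655, 0.631 and 0.279.

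**Figure D4:**
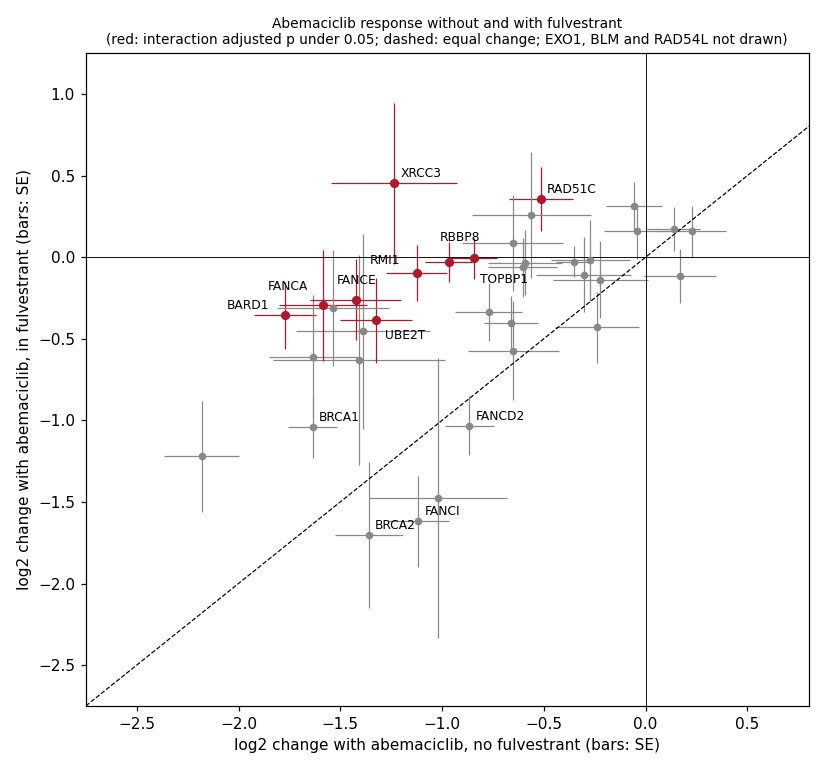
Log2 change with abemaciclib in the absence of fulvestrant (x axis) and on top of fulvestrant (y axis), bars are SE, 1 point per gene; red points passed the interaction test and the dashed line marks equal change. Red points lie above the line, between -0.39 and 0.45 on the y axis, while FANCD2, FANCI and BRCA2 lie close to or below the line. EXO1, BLM and RAD54L, with few or no reads in a group, are not drawn.

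Other genes of the same pathways had smaller medians. Of 40 tested genes from a list of 41 further recombination and Fanconi genes, 19 were lower and 2 higher with abemaciclib, 23 and 2 with fulvestrant, and 21 and 2 with the combination, with medians of -0.39, -0.49 and -0.49. Over all genes tested, 20.7%, 25.7% and 27.5% were lower and 20.5%, 25.3% and 27.7% higher in these comparisons. The largest changes in the combination were those of EME1, a nuclease subunit, PSMC3IP, an accessory factor of strand exchange, and HROB, which recruits the MCM8 and MCM9 helicase. EME1 changed by -0.95 ± 0.32, -3.42 ± 0.45 and -4.45 ± 0.50 against DMSO, PSMC3IP by -1.61 ± 0.20, -2.81 ± 0.24 and -3.67 ± 0.26, and HROB by -0.70 ± 0.39, -2.58 ± 0.52 and -3.62 ± 0.57. The abemaciclib value of HROB did not pass (adjusted p 0.154). For EME1 and for HROB alike, the combination value rests on 5 reads and the fulvestrant value on 9.

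Of 19 tested end-joining genes, 9, 10 and 9 were lower and 1 higher in each comparison, with medians of -0.32, -0.49 and -0.38. The largest changes in the combination were those of DCLRE1C (-1.06 ± 0.16), MAD2L2 (-0.93 ± 0.10) and RIF1 (-0.93 ± 0.10). Of 17 tested nucleotide excision repair genes, 1, 4 and 4 were lower and 3, 3 and 4 higher, with medians of 0.08, 0.02 and 0.10. For comparison, 20.7%, 25.7% and 27.5% of all genes tested were lower and 20.5%, 25.3% and 27.7% higher. The excision repair counts did not exceed these shares. GTF2H2, which has near-identical copies that can split its reads (-1.64 ± 0.32), and DDB2 (-1.48 ± 0.37) were lower in the combination and CETN2 higher (0.69 ± 0.08).

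Reads at the 3′ end can belong to a neighbour, and the setting of the counting for strand is not stated. Within the last 500 exonic bases, an annotated gene on the opposite strand overlaps RAD54L (LRRC41), NBN (OSGIN2), FANCL (VRK2) and FANCI (POLG), and ATRIP (TREX1) shares them with a gene on its own strand, as do RAD50 and FANCG with unnamed genes. The values of these 7 genes are uncertain to that extent.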

How the data were processed

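Reads were counted per gene in 12 libraries of CAMA-1 cells, made with a 3′ kit that primes on polyadenylated RNA, and samples were grouped by their treatment label. The deposited table holds raw counts, made by the authors. Per the labels and the study's methods, reads were trimmed with BBDuk, aligned to hg38 (GRCh38) with STAR and counted with featureCounts 2.0.1 on GENCODE 35. The strand setting of the counting is not given in the sources used here. No molecular identifiers are described, so counting intervals (95%, exact, conditional on the total) and the limit of 3 reads for a count of 0 cover counting error only.

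The 44 unnamed rows, with 0 reads, were left out. The filterByExpr function, at its defaults of 10 reads and a total of 15, kept 11803 genes. Models used edgeR 4.0.16 (limma 3.58.1, R 4.3.3), TMM factors and 4 group means with no covariate, over all libraries, with robust dispersions. The 6 pairs of groups and the interaction were compared by the quasi-likelihood F test, with p adjusted over all genes after Benjamini and Hochberg and a threshold of 0.05. The SE of a log2 fold change was derived as its size divided by the square root of its F statistic. It is approximate for genes with few reads. CPM values use TMM-scaled library sizes. An exact two-sided permutation test of 3 against 3 libraries cannot give a p below 0.1, so calls rest on the model. The steps were also run on simulated data with a spread common to all genes, which does not bear on genes with few reads.

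Values are shown per library for the 3 genes with the highest mean CPM of each role, the 5 genes with the largest called change in each comparison, every gene called higher and every gene with a called interaction. Outside the 40 genes, the 3 with the largest change of a list were named, and 1 gene of the list of further recombination genes is not reported here and was left out of its counts. The genes and lists were chosen with earlier results of these data known. Replicate numbers were tested for pairing (see the dependence on processing). Alternatives were DESeq2 1.42.0, other normalizations and filters, only the groups compared, a 2-fold requirement, a replicate block and leaving out each library. Gene positions are from GENCODE 44 (GRCh38) and promoters from RefSeq (GRCh38.p14).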

Additional observations from a re-analysis of the deposited data

Results flagged for a closer look

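For 9 genes the response to abemaciclib depended on fulvestrant by the test of the interaction itself (edgeR quasi-likelihood test, adjusted over all genes), in each case with a less negative or a positive change with abemaciclib on top of fulvestrant. For RAD51C and XRCC3 that change was positive, at 0.36 and 0.45, and did not pass. The reading again takes the doses in the combination to be those of the single drugs. The interaction was 1.42 for BARD1 (adjusted p 0.000228), 0.94 for RBBP8 (0.000201), 0.84 for TOPBP1 (0.000822) and 1.03 for RMI1 (0.00168). It was 0.87 for RAD51C (0.0139), 1.16 for FANCE (0.0139) and 1.29 for FANCA (0.024). The values for UBE2T (0.94, 0.0369) and XRCC3 (1.69, 0.0389) were closest to the threshold. The calls of RAD51C, FANCE, FANCA, UBE2T and XRCC3 were lost without certain single libraries, and those of UBE2T and XRCC3 also with DESeq2. No group has the 4 libraries that a test for a single outlying sample needs.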

How the results depend on the processing

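A minimum of 10 counts in every library leaves out the genes that fell furthest, and these cannot be counted as lower. The counts under this filter are therefore out of fewer repair genes than in the main test, a total not given here. The number lower was 19 with abemaciclib, 21 with fulvestrant, 10 in the combination against abemaciclib, 3 against fulvestrant and 11 in fulvestrant against abemaciclib. Of all 9748 genes that passed this filter, 4185, 5166, 3345, 91 and 2919 were called in these comparisons, lower or higher. The medians of the repair genes were -0.65, -1.12, -1.15 (combination against DMSO), -0.31, -0.11 and -0.26, with 0.40 for the interaction. A 2-fold requirement left 18 lower with abemaciclib, 13 lower in fulvestrant against abemaciclib, 5 interactions, and 0 higher with fulvestrant, with the combination and in the combination against abemaciclib. With DESeq2, 1 gene was higher in the combination and 0 in the combination against abemaciclib, as was the case with no filter. Fitting only the groups compared gave 3 genes lower in the combination against fulvestrant, with a median of -0.12; it could not be applied to the interaction. Library totals alone gave an interaction median of 0.65.

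Leaving out single libraries moved the median to between -1.47 and -1.27 with fulvestrant, -1.52 and -1.33 with the combination, -0.79 and -0.58 in the combination against abemaciclib, -0.26 and -0.13 against fulvestrant, -0.64 and -0.48 in fulvestrant against abemaciclib, and 0.39 and 0.60 for the interaction. The number higher ran from 1 to 2 with fulvestrant and with the combination, 0 to 2 in the combination against abemaciclib and 0 to 1 in fulvestrant against abemaciclib; the number lower against fulvestrant ran from 3 to 5, and 5 to 10 interactions were positive and 0 to 1 negative. Changes near 0 turned sign: ATM in the combination (0.016 with upper-quartile factors, -0.27 to 0.14 without 1 library), MRE11 with abemaciclib (-0.17 to 0.048) and FANCL in the combination (-0.25 to 0.0095). A call was counted as lost only where the alternative still gave its gene an adjusted p. The 2-fold requirement was applied to counts of genes alone. Of 152 named calls, 25 were lost under some other alternative, and 15 with DESeq2. The cause was not tested.

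Replicate numbers did not pair the samples: deviations of same-numbered libraries correlated by -0.21 to 0.12, with 2 of 18 pairs above 0.1, and 5 of 12 libraries correlated best with their own number. With the replicate block, 3 genes were lower in the combination against fulvestrant, and 5 of the 152 named calls were lost: BRCA2 (adjusted p 0.0852) and EXO1 (0.0628) in the combination against fulvestrant, XRCC3 against abemaciclib (0.0537), CHEK2 in fulvestrant against abemaciclib (0.0578) and the interaction of XRCC3 (0.0582). Depth limits the genes with few reads, EXO1, BLM, RAD54L and POLQ, in the combination.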
